A study of Saccharomyces cerevisiae with 12 samples.

Results

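The genes of invertase and of the hexose kinases in Saccharomyces cerevisiae were followed across fermentations of a synthetic agave must at 28 ºC. They are SUC2 (YIL162W), HXK1 (YFR053C), HXK2 (YGL253W), GLK1 (YCL040W) and EMI2 (YDR516C). The 5 genes were found by matching the systematic names of the array probes to a table of S288C genes, and each had 1 probe and a value on every array. They are 5 of 6214 genes with a probe and 5 of 5474 genes tested. ITD00185, taken as the agave strain of the study's title, was sampled at 48 h and at 96 h, and so was T73, a commercial wine yeast. Each of these 4 groups had 3 arrays, which the labels call biological replicates, and all 12 samples shared the must and the temperature. No mutation, deletion or added agent is given for either strain. Each array set the RNA of 1 fermentation, labelled with Cy5, against a Cy3-labelled sample mix from the same time, whose makeup is not stated.

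Invertase is the secreted enzyme that splits sucrose, and also short fructans, into glucose and fructose outside the cell. The sugars enter through hexose transporters and are then phosphorylated. Hxk1 and Hxk2 act on both glucose and fructose, whereas the glucokinase Glk1 acts on glucose and not on fructose. Hxk2 is the main hexokinase of cells growing on glucose and also takes part, with the repressor Mig1, in glucose repression. SUC2, HXK1 and GLK1 are known as genes that glucose represses. HXK1 and HXK2 are paralogs, and so are GLK1 and EMI2. Emi2 was first described as needed for the induction of early meiotic genes. Agave must is rich in fructose, the sugar that Glk1 cannot use.

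Values are log2 ratios of strain to mix as deposited, and differences are ITD00185 minus T73, ± the standard error of a linear model over all 12 arrays. Higher means higher in ITD00185 only if strain was divided by mix, a reading that is likely from the order of channels and dyes in the labels but is not stated. With the sign turned, every direction below turns and no call changes. The mix falls out of a strain difference only if both strains' arrays of that time carried the same mix, which is not stated. A call is an adjusted p under 0.05 over all 5474 genes. In bulk RNA, fewer cells that express a gene and less RNA of it per cell cannot be told apart, and the probes also respond to gene copies and sequence, which were not measured separately. Strains can carry further SUC genes at chromosome ends that a SUC2 probe would bind, and a probe may not fully separate paralogs. The array of ITD00185 at 48 h replicate 2 stood apart from its group. Across 4807 genes it correlated at 0.45 and 0.54 with replicates 1 and 3, which correlated with each other at 0.76. With the ITD00185 arrays of 96 h it correlated at 0.83 to 0.87. With the arrays outside the group, replicates 1 and 3 correlated at 0.23 to 0.55 and replicate 2 at 0.56 to 0.87. Replicates 1 and 3 also had the smallest spreads of the 12 arrays (SD 1.03 and 1.06, against 1.52 for replicate 2). Which of these arrays is typical of the group was not tested, so values without replicate 2 are not taken as the better ones. Members, lists and named genes whose calls replicate 2 changed are given with and without it.

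HXK1 was the member that differed between the strains at both times, about 7.02-fold higher in ITD00185 at 48 h and 4.11-fold at 96 h. HXK2, its paralog, lay on the other side, lower in ITD00185 by about 1 on the log2 scale at each time without a call. SUC2, GLK1 and EMI2 had values above T73 at 48 h and below T73 at 96 h, none of them called at either time. At 48 h 1 of 5 members was called, against 39.5% of all genes (12.9% higher and 26.7% lower in ITD00185). At 96 h 1 of 5 was called, against 22.5% (12% higher and 10.5% lower). Leaving out ITD00185 48 h replicate 2 made the count 3 of 5 at 48 h, all higher, against 52.8% of genes (20% higher and 32.9% lower). At 96 h it made the count 3 of 5, 1 higher and 2 lower, against 33.9% (17.4% higher and 16.6% lower). With array weights 2 of 5 were called at 48 h, both higher, against 49.5% (18.4% higher and 31.1% lower). At 96 h all 5 were, 1 higher and 4 lower, against 58.1% (29.5% higher and 28.6% lower). The arrays of the strains did not overlap for 1 of 5 members at 48 h, against 40.8% of genes, and for 4 of 5 at 96 h, against 57.6%. The median difference of the members was 0.58 at 48 h and -0.73 at 96 h, beside -0.32 and -0.01 over all genes tested. With each array centred on its median, the called genes at 48 h were 1001 higher and 1120 lower, against 705 and 1459 as deposited.

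**Figure D1:**
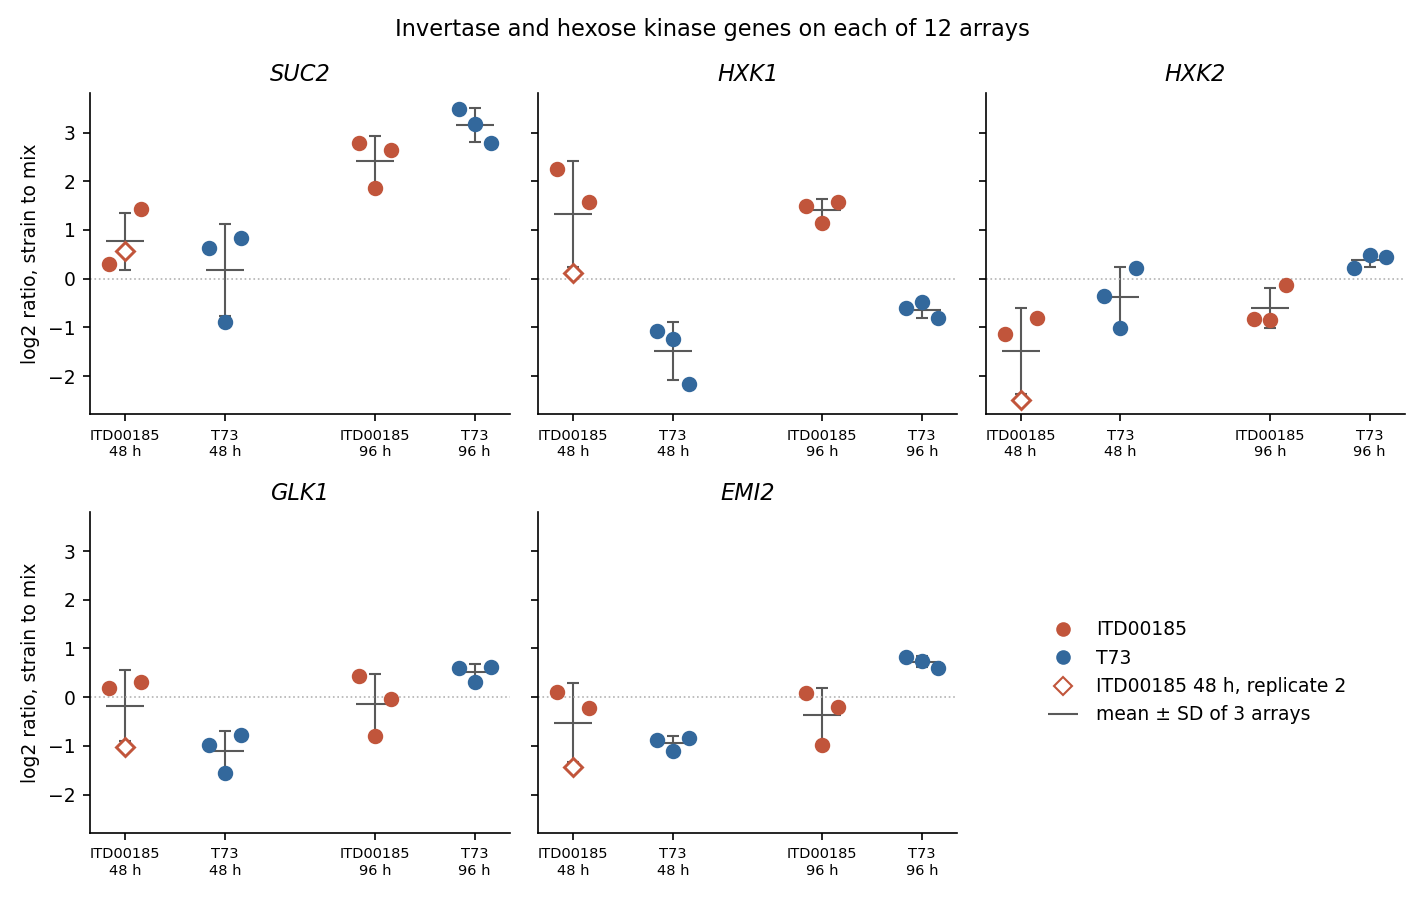
Log2 ratio of strain to mix (vertical axis) of the 5 genes on each of the 12 arrays, by strain and time, with points for arrays and lines for the mean ± SD of 3 arrays. HXK1 lies between 0.13 and 2.26 on all ITD00185 arrays and between -2.17 and -0.48 on all T73 arrays, and SUC2 is at 1.86 or above on every array of 96 h. The open diamond is the array of ITD00185 at 48 h that stood apart.

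SUC2, the invertase gene, had ratios of 0.29, 0.57 and 1.43 in ITD00185 at 48 h, against 0.63, -0.90 and 0.83 in T73. The strains overlapped, and the low T73 value was that of replicate 2. At 96 h SUC2 stood at 2.78, 1.86 and 2.64 in ITD00185, against 3.49, 3.17 and 2.79 in T73. All 6 values were well above the mix, and the T73 values lay above those of ITD00185, although the nearest pair was only 0.01 apart. The difference was 0.58 ± 0.48 at 48 h (95% interval -0.47 to 1.62, adjusted p 0.346) and -0.73 ± 0.48 at 96 h (-1.77 to 0.32, adjusted p 0.281). Without T73 48 h replicate 2 the difference at 48 h was 0.04.

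The larger movement of SUC2 was between the times. Its mean ratio was 3.15 ± 0.35 at 96 h, against 0.19 ± 0.94 at 48 h, in T73 (SD, n = 3), a rise of 2.97 ± 0.48 in the ratio (adjusted p 0.00269). Only 7 of 5474 genes had a larger rise in T73. In ITD00185 the mean was 2.42 ± 0.50 at 96 h, against 0.76 ± 0.59 at 48 h, a change of 1.66 ± 0.48 (95% interval 0.61 to 2.71, adjusted p 0.0603) with no overlap of the arrays. It was 1.56 and called without ITD00185 48 h replicate 2 (adjusted p 0.0426), and with array weights it was 1.49 (adjusted p 0.00749). Such a change compares ratios to mixes of different times, so it is a change relative to the mix and not of expression. The change of the strain difference from 48 h to 96 h was -1.31 ± 0.67 (-2.79 to 0.17, adjusted p 0.139), so a different rise in the strains was not shown. With the arrays scaled to one spread it was -2.63 and after quantile normalization -2.79, and it was called under both (adjusted p 0.0307 and 0.0278).

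HXK1 encodes hexokinase isoenzyme 1. At 48 h its ratios were 2.26, 0.13 and 1.58 in ITD00185, against -1.07, -1.24 and -2.17 in T73. The strains did not overlap, and the lowest ITD00185 value was that of replicate 2, the array that stood apart. At 96 h they were 1.49, 1.15 and 1.58 in ITD00185, against -0.61, -0.48 and -0.82 in T73, and again did not overlap. The difference was 2.81 ± 0.48 at 48 h (95% interval 1.76 to 3.86, adjusted p 0.00161), 3.13 above the median of all genes, with 1.06% of genes as far or farther in that direction. It was 3.41 without ITD00185 48 h replicate 2 (adjusted p 8.85e-05). At 96 h it was 2.04 ± 0.48 (0.99 to 3.09, adjusted p 0.013), with 5.23% of genes as far or farther.

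The call of HXK1 at 48 h was kept in all 20 alternatives, at 2.34 to 3.41. At 96 h it was lost without T73 96 h replicate 3 (1.95, adjusted p 0.0516) and after quantile normalization (1.97, adjusted p 0.0579), and kept in the other 18. The difference at 96 h minus that at 48 h was -0.77 ± 0.67 (-2.25 to 0.71, adjusted p 0.369). It became -1.37 with a call without ITD00185 48 h replicate 2 (adjusted p 0.0313). In T73 the mean ratio of HXK1 was -0.64 ± 0.17 at 96 h, against -1.49 ± 0.59 at 48 h (SD, n = 3), a change of 0.85 ± 0.48 (adjusted p 0.187) without overlap. It was called without ITD00185 48 h replicate 2 (adjusted p 0.0498). That array bears on this change only through the shared variance, the set of genes tested and the adjustment of p. In ITD00185 the change was 0.08 ± 0.48.

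HXK2 encodes the predominant hexokinase on glucose. Its ratios at 48 h were -1.14, -2.49 and -0.82 in ITD00185, against -0.35, -1.02 and 0.23 in T73. The strains overlapped, and replicate 2 of ITD00185 was again the lowest. At 96 h they were -0.83, -0.85 and -0.14 in ITD00185, against 0.22, 0.49 and 0.45 in T73, without overlap. The difference was -1.10 ± 0.44 at 48 h (95% interval -2.07 to -0.13, adjusted p 0.0664) and -0.99 ± 0.44 at 96 h (-1.96 to -0.02, adjusted p 0.123). As far or farther in that direction were 28.3% of genes at 48 h and 12.5% at 96 h. Less the median of all genes the difference was -0.78 at 48 h and -0.98 at 96 h.

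The HXK2 difference without ITD00185 48 h replicate 2 was -0.60 at 48 h (adjusted p 0.187), while at 96 h it stayed at -0.99 with a smaller error and passed (adjusted p 0.0384). At 48 h it passed with scaled arrays (-1.34, adjusted p 0.0276) and after quantile normalization (-1.26, adjusted p 0.0352). In a fit of the 6 arrays of 96 h alone it passed at that time (adjusted p 0.0189). HXK2 was thus lower in ITD00185 under every setting tried at both times, with a call under some of them. The difference at 96 h minus that at 48 h was 0.11 ± 0.62 (-1.26 to 1.48). Its change between times was 0.88 ± 0.44 in ITD00185 (adjusted p 0.187) and 0.77 ± 0.44 in T73 (adjusted p 0.199).

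**Figure D2:**
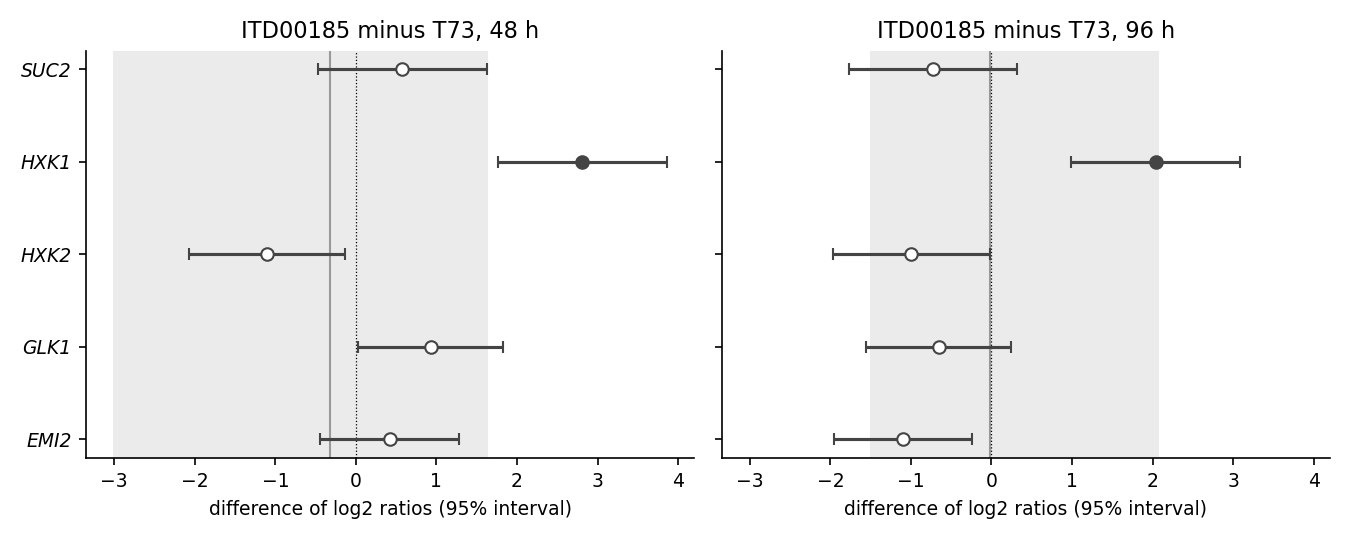
Difference of log2 ratios, ITD00185 minus T73 (horizontal axis), with its 95% interval, for the 5 genes at 48 h (left) and at 96 h (right). Filled points are called, open points are not, the grey band spans the 5th to 95th percentile of all genes tested and the grey line is their median. HXK1 lies at 2.81 and 2.04 while HXK2 lies at -1.10 and -0.99.

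Within an array, an offset shared by all probes falls out of the difference between a pair of genes. HXK1 minus HXK2 was 3.41, 2.61 and 2.39 in ITD00185 at 48 h, against -0.72, -0.22 and -2.39 in T73. At 96 h it was 2.32, 1.99 and 1.71 in ITD00185, against -0.83, -0.98 and -1.27 in T73. All 6 ITD00185 values were positive and all 6 T73 values negative, and ITD00185 48 h replicate 2 lay between its replicates. The mean differed between the strains by 3.91 at 48 h and by 3.03 at 96 h. Relative to the mix, HXK1 thus stood above HXK2 on each ITD00185 array and below it on each T73 array. This measure was not tested, since it joins members chosen with earlier results known, and it does not say which gene changed.

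**Figure D3:**
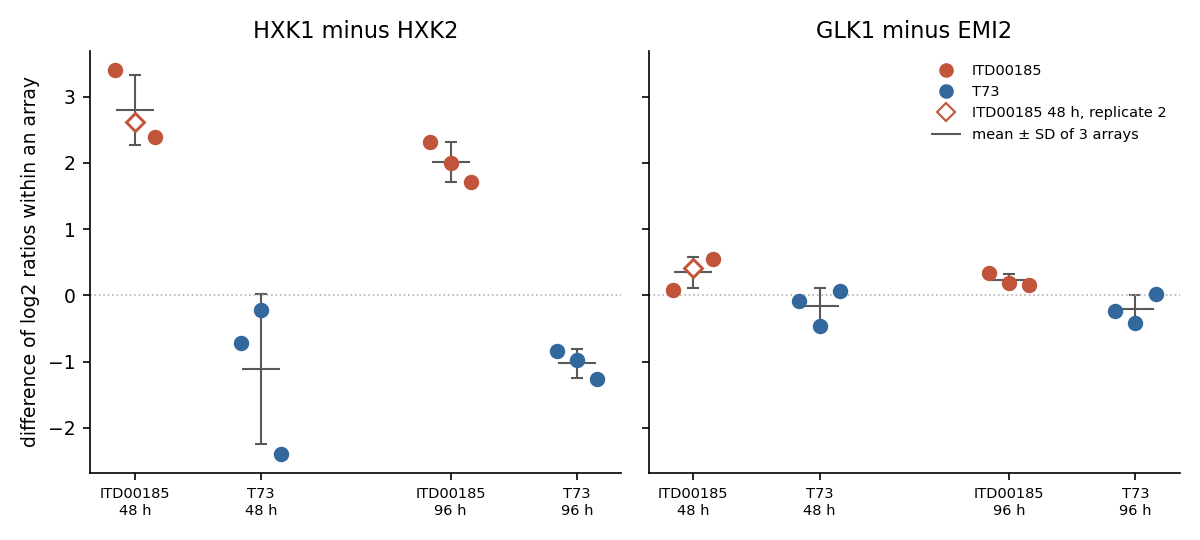
Difference of the log2 ratios of paralogs within each array (vertical axis), HXK1 minus HXK2 on the left and GLK1 minus EMI2 on the right, with points for arrays and lines for the mean ± SD of 3 arrays. HXK1 minus HXK2 is 1.71 or more on all ITD00185 arrays and -0.22 or less on all T73 arrays, whereas GLK1 minus EMI2 stays between -0.46 and 0.54.

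GLK1 encodes glucokinase. Its ratios at 48 h were 0.19, -1.02 and 0.32 in ITD00185, against -0.98, -1.56 and -0.77 in T73. Replicates 1 and 3 of ITD00185 lay above all T73 arrays, and replicate 2 lay among them. At 96 h the ratios were 0.43, -0.80 and -0.05 in ITD00185, against 0.60, 0.32 and 0.63 in T73, where 1 ITD00185 array fell within the T73 range. The difference was 0.93 ± 0.41 at 48 h (95% interval 0.03 to 1.83, adjusted p 0.089) and -0.65 ± 0.41 at 96 h (-1.55 to 0.24, adjusted p 0.259). Without ITD00185 48 h replicate 2 that at 48 h was 1.35 and was called (adjusted p 0.00977).

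EMI2, the paralog of GLK1, had ratios of 0.10, -1.44 and -0.23 in ITD00185 at 48 h, against -0.89, -1.10 and -0.83 in T73. Replicate 2 of ITD00185 lay below every T73 array and the other 2 above. At 96 h they were 0.09, -0.99 and -0.20 in ITD00185, against 0.83, 0.74 and 0.61 in T73, without overlap. The difference was 0.42 ± 0.39 at 48 h (-0.44 to 1.28, adjusted p 0.408) and -1.10 ± 0.39 at 96 h (-1.95 to -0.24, adjusted p 0.065). Without ITD00185 48 h replicate 2 it was 0.88 at 48 h, with a call (adjusted p 0.0342), and -1.10 at 96 h, also with a call (adjusted p 0.013).

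The strain difference of GLK1 and EMI2 moved by nearly the same amount between the times. At 96 h minus 48 h it was -1.58 ± 0.58 for GLK1 (-2.85 to -0.31, adjusted p 0.0501) and -1.51 ± 0.55 for EMI2 (-2.73 to -0.30, adjusted p 0.04996), on either side of the threshold. This made EMI2 the 1 member called of 5, against 38% of all genes (24.4% upward and 13.6% downward, or 1117 and 1122 genes with centred arrays). Without ITD00185 48 h replicate 2 the values were -2.01 and -1.97, both called (adjusted p 0.00604 and 0.00295). With HXK1 this made 3 of 5 members, all downward, against 54.2% of genes (30.6% upward and 23.6% downward). The call of EMI2 was lost in 12 of 19 alternatives, among them without each of 10 arrays, all but ITD00185 48 h replicate 2 and ITD00185 96 h replicate 1. GLK1 was called in 8 of 19.

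In T73 both genes rose relative to the mix. GLK1 averaged 0.52 ± 0.17 at 96 h, against -1.10 ± 0.41 at 48 h (SD, n = 3), a rise of 1.62 ± 0.41 (adjusted p 0.0141). EMI2 averaged 0.73 ± 0.11 at 96 h, against -0.94 ± 0.14 at 48 h, a rise of 1.67 ± 0.39 (adjusted p 0.0107). The arrays of the times did not overlap for either gene. The call of GLK1 was lost without T73 48 h replicate 2 (1.39, adjusted p 0.0526), and that of EMI2 was kept in all 20 alternatives. With SUC2, 3 of 5 members rose in T73, against 32.4% of all genes called (8.42% upward and 23.9% downward, or 775 and 927 genes with centred arrays), and 4 of 5 did not overlap between the times, against 53.5% of genes. The count was 4 of 5 members without ITD00185 48 h replicate 2, all upward and HXK1 among them. Of all genes 42.5% were then called (13% upward and 29.5% downward). The median change of the members was 1.62, beside -0.30 over all genes tested.

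In ITD00185 the change from 48 h to 96 h was 0.03 ± 0.41 for GLK1 (95% interval -0.86 to 0.93) and 0.15 ± 0.39 for EMI2 (-0.70 to 1.01). The limma fit called 0 of 5 members there, against 6.52% of all genes (3.82% upward and 2.7% downward), and 1 of 5 had an unadjusted p under 0.05, SUC2. With array weights SUC2 alone was called, against 51.8% of genes (24.2% upward), and likewise without ITD00185 48 h replicate 2, against 39.2% (18.5% upward). The number of genes called in this comparison, 357 with all arrays, was 2094 without that array and 7 without ITD00185 48 h replicate 1, so the shares beside the members depend on which arrays enter. The times did not overlap for 1 of 5, SUC2, against 33.1% of genes. The median change of the members in ITD00185 was 0.15, beside -0.12 over all genes tested.

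Within arrays GLK1 and EMI2 kept close together. GLK1 minus EMI2 was 0.09, 0.42 and 0.54 in ITD00185 at 48 h, against -0.09, -0.46 and 0.06 in T73. At 96 h it was 0.34, 0.19 and 0.16 in ITD00185, against -0.23, -0.43 and 0.02 in T73. The mean differed between the strains by 0.51 at 48 h and by 0.44 at 96 h. Whether the close values come from cross-hybridization of the paralogs was not tested.

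Likeness of profiles was measured as the root mean square difference over the 12 arrays, each profile centred on its own mean, among 4127 genes with a symbol and 12 values. GLK1 was the second nearest gene to EMI2, at 0.30 log2 units, and EMI2 the fifth nearest to GLK1, beside medians over genes of 0.99 and 1.00. The nearest to EMI2 was ALD4, a mitochondrial aldehyde dehydrogenase (0.28), and the third UBA3 (0.30). The nearest to GLK1 were SPI1, a cell wall protein of stationary phase (0.27), CWC21 (0.28) and the DNA glycosylase OGG1 (0.29). SPI1 was also the nearest to SUC2 (0.69), followed by the glutamine permease GNP1 (0.72) and RRG9 (0.79), with GLK1 ninth at 0.86 and EMI2 at 0.89. The median distance of SUC2 over genes was 1.54. Seen from the other side, SUC2 was only the 1530th nearest gene to GLK1 and the 1555th to EMI2.

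The hexokinases had other neighbours. HXK1 was nearest to the vacuolar aminopeptidase APE3 (0.31), the maltose permease MAL31 (0.47) and POT1, the peroxisomal thiolase (0.48). HXK2 was nearest to the mannoprotein SRL1 (0.42), ERG10 of the mevalonate pathway (0.47) and CTK2 (0.47). The distance of HXK1 to HXK2, 1.84, was above the median distance of each to all genes, which was 1.55 for HXK1 and 1.04 for HXK2. The arrays share their strains and times, and each mix is of the time of its array, so these distances describe likeness in this set only.

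Genes that feed or follow the members were given by 5 lists. Their counts stand beside the all-gene shares above, 12.9% higher and 26.7% lower at 48 h and 12% and 10.5% at 96 h, and their medians beside -0.32 and -0.01. Without ITD00185 48 h replicate 2 the all-gene shares were 20% higher and 32.9% lower at 48 h, and 17.4% and 16.6% at 96 h. With scaled arrays 537 of 5474 genes were higher and 715 lower at 48 h, and 669 and 584 at 96 h. Of 13 genes for the use of maltose and other alpha-glucosides 9 could be tested. At 48 h 7 were higher in ITD00185 and 0 lower, with a median of 2.40, and at 96 h 6 were higher and 1 lower, with a median of 1.16. The activator MAL33 stood at 3.61 ± 0.29 and 2.63 ± 0.29 at the 2 times, the permease MPH2 at 4.49 ± 0.53 and 3.15 ± 0.53, and the isomaltase IMA1 at 2.40 ± 0.32 and 1.58 ± 0.32. Of the list 8 genes were tested without ITD00185 48 h replicate 2, with 6 higher and 1 lower at each time. These genes have close copies that a probe may not separate. SUC2, which also serves disaccharide use, was called at neither time.

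Of 17 hexose transporter genes 15 were tested, and 11 were higher in ITD00185 at 48 h and 0 lower, with a median of 1.29. The high-affinity transporter gene HXT6 was higher by 1.77 ± 0.34, HXT15 by 1.97 ± 0.35 and HXT13 by 2.10 ± 0.33. At 96 h 5 were higher and 1 lower, with a median of 0.21. Here HXT13 differed by 2.24 ± 0.29, HXT17 by 2.39 ± 0.42 and HXT9 by -2.01 ± 0.37. HXT genes too have near-identical copies. With scaled arrays 7 were higher and 1 lower at 48 h. Of the 14 transporter genes tested without ITD00185 48 h replicate 2, 10 were higher and 0 lower at 48 h, and 4 were higher and 2 lower at 96 h.

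Of 17 genes of the steps that form or use hexose phosphates 16 were tested, with 6 higher and 1 lower at 48 h and 1 higher and 2 lower at 96 h. The medians were 0.65 and -0.69. The 3 calls of 16 at 96 h are a share no larger than the 22.5% of all genes. PGI1, which turns glucose 6-phosphate into fructose 6-phosphate, differed by 0.56 ± 0.35 at 48 h (adjusted p 0.218) and by -0.95 ± 0.35 at 96 h (adjusted p 0.0739). The phosphofructokinase subunit genes PFK1 and PFK2 were higher at 48 h, by 1.10 ± 0.36 and 1.12 ± 0.40 (adjusted p 0.0335 and 0.0433), with overlap of the arrays, and stood at -0.87 and -0.82 at 96 h (adjusted p 0.105 and 0.15). The change of the difference was -1.51 ± 0.50 for PGI1, -1.97 ± 0.51 for PFK1 and -1.94 ± 0.56 for PFK2, all called (adjusted p 0.0359, 0.0156 and 0.0219). It was thus of the same sign as those of GLK1 and EMI2. Of these calls, those of PFK1 and PFK2 at 48 h were lost in 7 and 11 of 20 alternatives, and those of the change in 8 of 19 for PGI1, 1 of 19 for PFK1 and 4 of 19 for PFK2. For the change of the difference the list had 1 gene called upward and 7 downward, against 24.4% and 13.6% of all genes. The upward one was PFK26, at 3.78 ± 0.69 (adjusted p 0.004). Without ITD00185 48 h replicate 2 the list had 1 upward and 11 downward, against 30.6% and 23.6%. With scaled arrays the list had 1 and 3, beside 734 and 481 of all genes. Calls at 96 h were gained in 5 of 20 alternatives by PGI1, in 3 by PFK1 and in 2 by PFK2. Without ITD00185 48 h replicate 2, PGI1 passed at -0.95 (adjusted p 0.0468) and PFK1 at -0.87 (adjusted p 0.0421). That array bears on the difference at 96 h only through the shared variance, the set of genes tested and the adjustment of p.

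Also in that list, FBP1, the gluconeogenic bisphosphatase, was higher by 2.44 ± 0.31 at 48 h and the aldolase FBA1 by 1.63 ± 0.34. YLR446W, a reading frame related to the hexokinases, was higher by 1.90 ± 0.38 at 48 h (adjusted p 0.00353) and stood at 0.89 ± 0.38 at 96 h (adjusted p 0.106), where 5 of 20 alternatives gave it a call. The change of its difference was -1.01 ± 0.53 (adjusted p 0.146), and without ITD00185 48 h replicate 2 it was -1.30 with a call (adjusted p 0.0484). At 96 h PGM1, a phosphoglucomutase, differed by -1.08 ± 0.25, and PFK27 and PFK26, which make fructose 2,6-bisphosphate, by -1.02 ± 0.28 and 1.64 ± 0.49. Each of these 3 lost its call without at least 1 array of 96 h. PFK26 had the other sign at 48 h, where it was lower (-2.14 ± 0.49, adjusted p 0.00713) without overlap. Without ITD00185 48 h replicate 2 the list had 9 higher and 1 lower at 48 h, and 1 higher and 6 lower at 96 h. With scaled arrays it had 3 higher and 1 lower at 48 h.

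Of 37 regulators of SUC2 and of the hexose kinase genes 33 were tested. At 48 h 3 were higher and 7 lower, and at 96 h 6 were higher and 1 lower, with medians of -0.12 and 0.37. At 48 h both counts were below the shares of all genes, while at 96 h the higher ones were above and the lower one below. MIG1, the repressor that acts on SUC2 with Hxk2, was lower (-3.72 ± 1.09) at 48 h and higher by 4.55 ± 1.09 at 96 h, a change of 8.27 ± 1.54 (adjusted p 0.0042). Its call at 48 h was lost in 7 of 20 alternatives. At 96 h it stood at 3.59 with no call when replicate 2 of ITD00185 was left out, and at 4.51 and 4.40 with no call when replicate 1 or 3 of T73 was left out, while the call of the change was kept in all 19. MIG2, of the same list, went the other way. It was higher by 1.77 ± 0.36 at 48 h (adjusted p 0.00392) and stood at 0.02 ± 0.36 at 96 h (adjusted p 0.98). The change of the MIG2 difference was -1.76 ± 0.50 (adjusted p 0.0217). SNF1, the kinase that relieves repression, stood at -1.56 ± 0.59 and 1.44 ± 0.59 (adjusted p 0.0537 and 0.0964), and its change of 3.00 ± 0.83 was called (adjusted p 0.0189). SNF1 was lower (-2.17) at 48 h and higher by 1.44 at 96 h, both with a call, without ITD00185 48 h replicate 2 (adjusted p 0.00609 and 0.0377). In all, 4 of 20 alternatives gave it a call at each time, and the call of the change was kept in all 19. REG1, a subunit of the phosphatase that opposes it, was lower (-1.50 ± 0.33) at 48 h (adjusted p 0.00583) and stood at -0.51 ± 0.33 at 96 h (adjusted p 0.275).

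STD1, of the glucose sensing pathway, was lower (-4.34 ± 0.67) at 48 h, whereas GAL83, a beta subunit of the Snf1 complex, was higher by 1.44 ± 0.26 and the glycolytic activator GCR2 by 1.33 ± 0.25. At 96 h GAL83 was higher by 1.95 ± 0.26 and SIP2, another beta subunit, by 2.03 ± 0.37, and SNF6, of the SWI/SNF complex, was lower (-1.997 ± 0.33). STD1 had turned to higher by 2.17 ± 0.67 at 96 h (adjusted p 0.0398), a change of 6.51 ± 0.94 (adjusted p 0.0018). Counts of the 33 regulators at 48 h were 6 higher and 12 lower without ITD00185 48 h replicate 2, near the 20% and 32.9% of all genes. They were 4 higher and 3 lower with scaled arrays. At 96 h they were 9 higher and 1 lower, and 7 higher and 1 lower, under the same settings.

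All 15 genes of the secretion path that invertase takes were tested, and 0 were higher and 8 lower in ITD00185 at 48 h, with a median of -1.18. MNN9 and MNN1, mannosyltransferase genes of the Golgi, were lower (-3.09 ± 0.33 and -3.27 ± 0.53), and so was SRP54 of the signal recognition particle (-3.04 ± 0.34). At 96 h 1 was higher and 2 lower, with a median of -0.39. SRP54 was higher by 2.34 ± 0.34, and OST1 and SWP1 of the oligosaccharyltransferase were lower (-1.20 ± 0.39 and -0.93 ± 0.30). OST1 and SWP1 lost their calls in 9 and 10 of 20 alternatives. The median at 48 h shrank to -0.23 with scaled arrays, where 0 were higher and 5 lower, and 2 were higher and 8 lower without ITD00185 48 h replicate 2, where 2 were higher and 2 lower at 96 h.

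**Figure D4:**
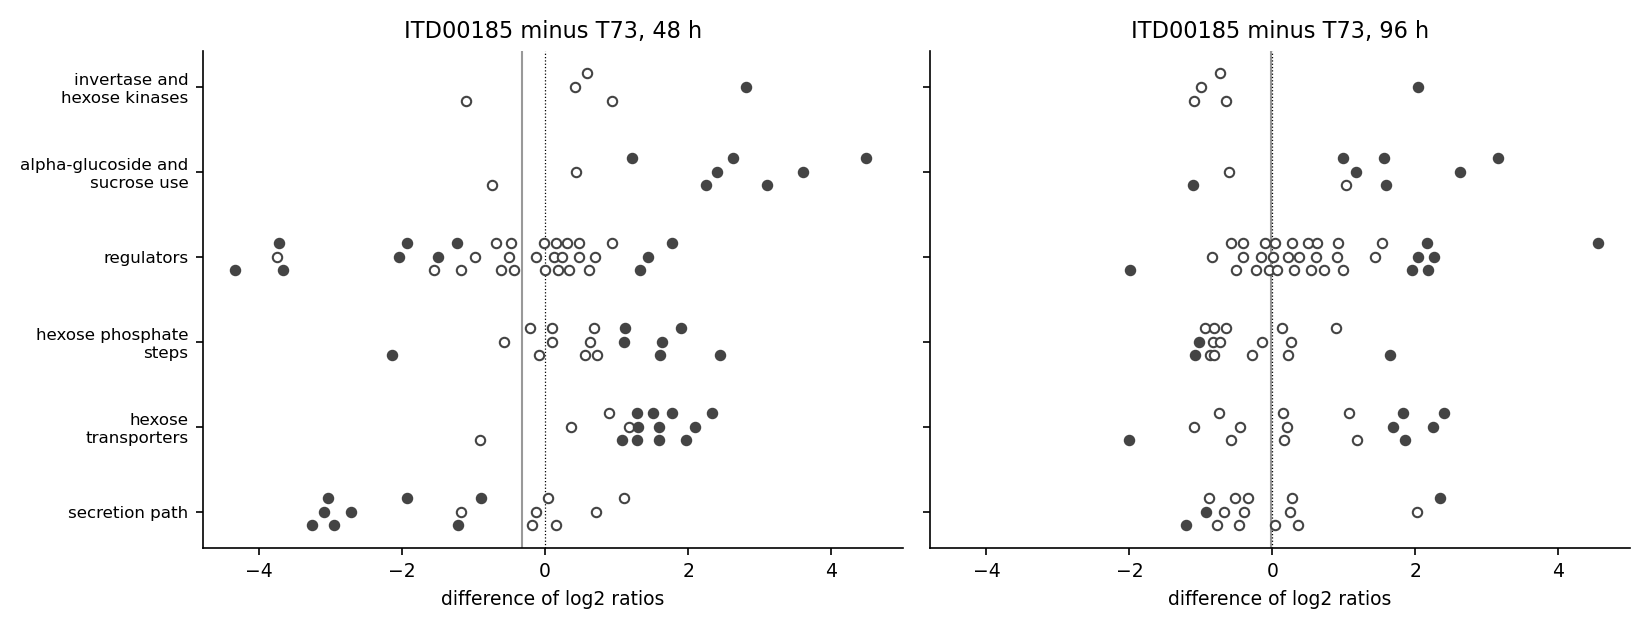
Difference of log2 ratios, ITD00185 minus T73 (horizontal axis), for the 5 members and each tested gene of the 5 lists (rows), at 48 h (left) and at 96 h (right). Filled points are called, open points are not, and the grey line is the median of all genes tested. HXK1 is the one filled point of its row at each time, and 11 of 15 hexose transporter genes are filled on the right of 0 at 48 h.

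**Figure D5:**
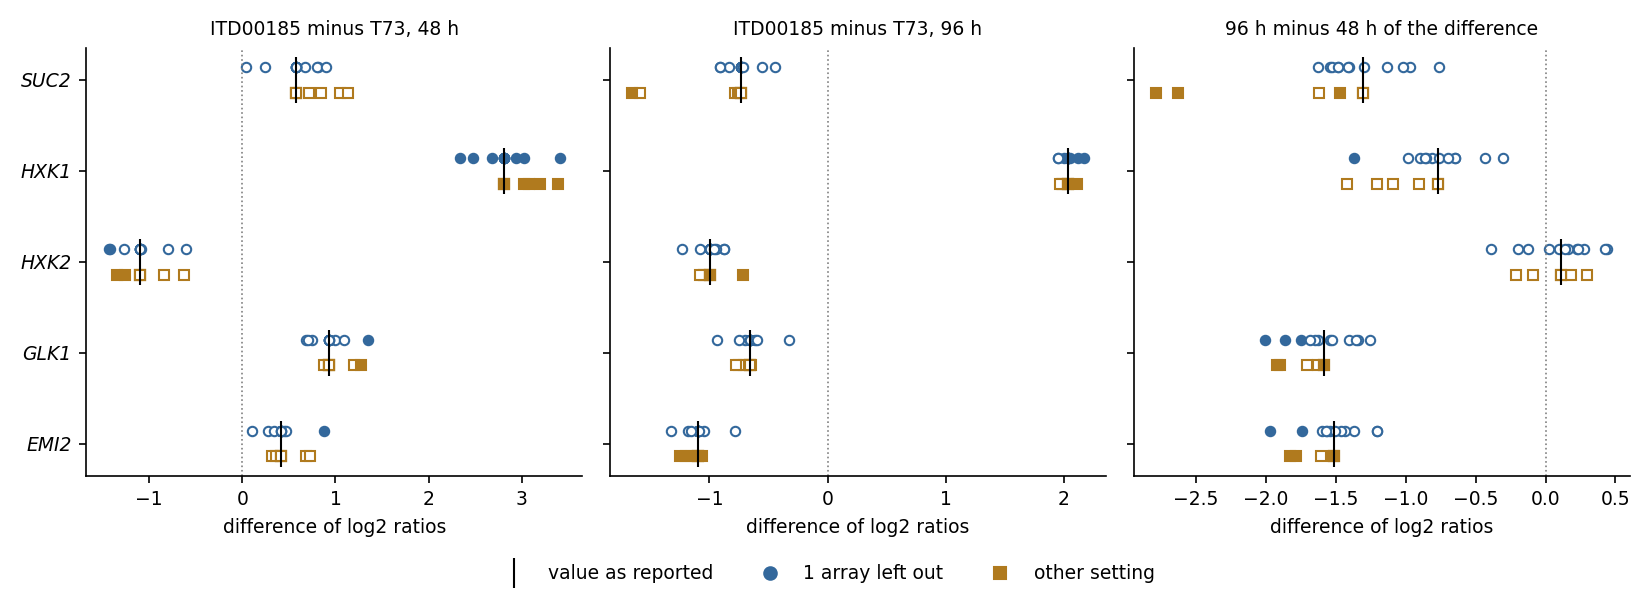
Strain difference of the 5 genes at 48 h, at 96 h, and its change between them (horizontal axes, log2 ratio units), as reported and under each alternative. Filled symbols are called, circles leave out 1 array, and squares are other settings. HXK1 lies between 2.34 and 3.41 at 48 h with every symbol filled, and HXK2 stays below 0 at both times with some symbols filled.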

How the data were processed

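Total RNA of the 12 samples was amplified linearly, labelled as indirect cDNA and hybridized to 2-colour arrays, per the labels' protocols. The sample titles do not say whether the samples of 48 h and 96 h came from the same fermentations. The authors deposited a log2 ratio per array for 6246 probes, with 5657 to 6116 values per array. Base 2 and the direction strain over mix are likely but not stated. Scanning, background correction and normalization are not given in the sources used here. Array medians ran from -0.03 to 0.42 and standard deviations from 1.03 to 2.08, so neither centre nor spread had been equalized. The number of arrays limits the precision.

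Probe names were matched to the S288C gene table (5753 by systematic name, 34 by synonym, 459 unmatched under their own names) and probes of a gene were averaged. Genes with at least 2 values in each group were tested with limma 3.58.1 in R 4.3.3 (4 group means, no block, 8 residual degrees of freedom and 3.16 from the prior). P-values are two-sided and adjusted by Benjamini and Hochberg over 5474 genes, with a threshold of 0.05. The fit was tested on simulated data. The simulated arrays were independent, shared one centre and spread, and none stood apart. That test thus does not cover the unequal arrays of this series. The members, lists and tests were chosen with earlier results of these data known. Named genes were the members, the 3 nearest profiles of each, up to 3 called genes of each list at each time by adjusted p, and 7 genes fixed by name. MIG2 was named in addition, beside MIG1. List counts under other settings were added after the data were seen. No sequence is printed.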

Additional observations from a re-analysis of the deposited data

Results flagged for a closer look

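The strain difference of EMI2 was itself called as different between the times. It was -1.10 at 96 h, against 0.42 at 48 h, a change of -1.51 (adjusted p 0.04996), just under the threshold. The call was lost in 12 of 19 alternatives, with an adjusted p of up to 0.117. Of all genes 38% were called in this comparison. The mean of ITD00185 was -0.37 ± 0.55 at 96 h and -0.52 ± 0.81 at 48 h, and that of T73 was 0.73 ± 0.11 at 96 h and -0.94 ± 0.14 at 48 h (SD, n = 3).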

How the results depend on the processing

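The 25 differences of the 5 genes were refitted under 8 other settings (7 for the change of the strain difference, which needs all arrays) and with each of 12 arrays left out. HXK1 at 48 h, SUC2 and EMI2 between the times in T73, and 3 uncalled results (SUC2 at 48 h and the change of HXK2 in each strain) kept their direction and side of the threshold throughout. With array weights, calls were gained by SUC2 (-0.75 at 96 h, -1.47 for the change of the strain difference, 1.49 between times in ITD00185), HXK2 (-0.71 at 96 h), GLK1 (1.27 at 48 h, -0.65 at 96 h, -1.92 for the change) and EMI2 (-1.06 at 96 h). Quantile normalization gave calls to SUC2 (-1.65 at 96 h, -2.79 for the change), HXK2 (-1.26 at 48 h) and EMI2 (-1.25 at 96 h), and took those of HXK1 at 96 h (1.97) and of EMI2 for the change (-1.61). Scaled arrays gave calls to HXK2 (-1.34 at 48 h), EMI2 (-1.20 at 96 h) and SUC2 (-2.63 for the change), and took that of EMI2 for the change (-1.52). With the change at -1.58 GLK1 passed on genes with 12 values and with values beyond 10 set to missing, and with arrays centred it passed at -1.90. SUC2 in ITD00185 (1.66) passed on genes with 12 values. In fits of only the 96 h arrays HXK2 (-0.99) and EMI2 (-1.10) passed.

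The replicate numbers were not taken to pair the samples, since the labels give them no shared source and only 8 of 18 correlations of same-numbered arrays, which ran from -0.19 to 0.52, were over 0.1. All 3 between ITD00185 at 48 h and T73 at 96 h were among these 8, and 7 of 12 arrays correlated best with their own number, a hint from the data and not from the design. With the replicate number as a block HXK2 at 48 h (-1.10), GLK1 at 48 h (0.93) and for the change (-1.58), EMI2 at 96 h (-1.10) and SUC2 in ITD00185 (1.66) passed, and 683 genes were called between times in ITD00185, against 357 without it.

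Signs turned for uncalled results alone. The change of the HXK2 difference was -0.21 with centred arrays and -0.092 with weights. Between times in ITD00185, HXK1 was -0.22 with weights, -0.63 when scaled and -0.81 when quantile normalized, GLK1 was -0.30 and EMI2 -0.10 with weights. The cause was not tested.

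With 1 array left out, the 48 h difference ran from 0.04 to 0.90 for SUC2, -1.43 to -0.60 for HXK2, 0.69 to 1.35 for GLK1 and 0.11 to 0.88 for EMI2. That at 96 h ran from 1.95 to 2.17 for HXK1, -1.23 to -0.87 for HXK2, -1.32 to -0.79 for EMI2, -0.94 to -0.32 for GLK1 and -0.91 to -0.44 for SUC2. Its change ran from -1.63 to -0.76 for SUC2, -1.37 to -0.30 for HXK1, -0.39 to 0.44 for HXK2, -2.01 to -1.26 for GLK1 and -1.97 to -1.20 for EMI2. In ITD00185 the change of the ratio ran from 1.43 to 1.99 for SUC2, -0.52 to 0.55 for HXK1, 0.38 to 1.21 for HXK2, -0.39 to 0.36 for GLK1 and -0.30 to 0.46 for EMI2, and in T73 from 0.52 to 1.06 for HXK1, 0.45 to 1.07 for HXK2 and 1.39 to 1.78 for GLK1.

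Counts over all genes depended on the setting. At 48 h 2164 genes became 1252 with scaled arrays, 1265 after quantile normalization, 778 in a fit of that time alone and 1386 to 2824 with 1 array left out. At 96 h 1229 became 3178 with weights, 2486 in a fit of that time alone and 545 to 1813. For the change of the difference 2080 became 1215, 1248, 3275 with weights and 1277 to 2894. In ITD00185 357 became 227, 203, 2835 with weights, 64 alone and 7 to 2094, and in T73 1772 became 759, 766 and 931 to 2270. Spot intensities were not used here, so signal over background behind a ratio is unknown.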
